A study of Caenorhabditis elegans with 12 samples.

Results

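The abu and pqn genes of Caenorhabditis elegans were followed in 4 strains at the L4 larval stage. Members were all genes whose symbol in the platform annotation is abu or pqn followed by a number and that had a probe set carrying that symbol alone. There were 58 such genes among 17138 annotated genes. A probe set counted as detected with log2 values of 4 or higher on no fewer than 3 of the 12 arrays, and each gene was represented by its detected probe set with the highest mean. This left 46 members, 9 abu and 37 pqn genes, among 10365 detected genes.

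The abu name stands for activated in blocked unfolded protein response, because the first members were found as transcripts induced by endoplasmic reticulum (ER) stress in worms whose XBP-1 branch of that response was blocked. The pqn name stands for prion-like glutamine- and asparagine-rich domain and was given from protein sequence, so that the class holds genes of unrelated roles. A number of abu and pqn paralogs are known to be made in the pharynx, the feeding organ, where their products become part of the cuticle that lines it, and such cuticle genes are transcribed in waves with each moult. The engulfment receptor CED-1 has also been linked to the expression of abu and pqn genes in worms exposed to bacteria.

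Each strain was measured on 3 Affymetrix arrays, 1 for each replicate pool of 3000 whole animals fed OP50 bacteria. WT was the laboratory strain N2. The strain labelled crh-1 null carried crh-1 (nn3315), in the gene for the transcription factor CREB, and the strain labelled tax-6 null was RB1667, with tax-6(ok2065) in the gene for calcineurin A. The strain labelled aak-2 o/e was AGD383, in which the transgene uthIs202 on an N2 background expressed AAK-2, the catalytic part of the kinase AMPK, as residues 1 to 321 fused to Tomato from the aak-2c promoter, with the unc-54 3'UTR and a rol6 marker. The series title placed AMPK, calcineurin, CRTC-1 and CREB in one longevity pathway. The source field of the aak-2 o/e arrays reads aak-2 null, against their title and strain fields. The pools were frozen at times chosen to allow for the strains' different rates of development, and no source used here gives those times.

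No probe set of a targeted gene bore out a label. The crh-1 probe set (_s) read 7.06, 7.18 and 7.24 on the WT arrays and 8.61, 8.43 and 8.81 on the arrays labelled crh-1 null, a rise of 1.46 ± 0.15 (adjusted p = 1.57e-05). Whether it lies inside the deleted part is not known here, so it does not check the deletion. The tax-6 probe set was too dim. The aak-2 probe sets changed by -0.41 ± 0.19 (adjusted p = 0.126) and -0.47 ± 0.12 (0.0129) in aak-2 o/e, so that 1 of them fell in the strain labelled as overexpressing the gene. Whether they lie within the transgene's fragment is not known here. The 4 strains are therefore named by their labels throughout, and each direction below belongs to the arrays so labelled. Within a strain the arrays correlated at 0.99 or above over all probe sets except controls, those too dim to test included. In the abu and pqn genes, tax-6 null replicate 1 was the lowest array of its strain in 31 of 46 members (67.4%, against 43.7% of all genes) and aak-2 o/e replicate 1 the highest in 31 of 46 (67.4%, against 32.8%). The median SD over 3 arrays was 0.33 for members and 0.21 for all genes in tax-6 null, and 0.17 and 0.12 in WT.

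All values below are deposited log2 values, so that a change of 1 is a doubling. Changes are given as a log2 difference ± SE from limma, 3 arrays against 3, with p-values adjusted by Benjamini-Hochberg over all 13396 tested probe sets and a threshold of 0.05. The 3 comparisons with WT share the 3 WT arrays. In crh-1 null, 10 of 46 members rose (21.7%, against 9.88% of all genes) and 6 fell (13%, against 10.7%), 16 in all where 20.6% of all genes passed. In tax-6 null, 20 of 46 rose (43.5%, against 18.7% of all genes) and 5 fell (10.9%, against 26.3%), 25 in all against 45%. In aak-2 o/e, 13 of 46 rose (28.3%, against 14.2% of all genes) and 3 fell (6.52%, against 19.3%), 16 in all against 33.5%. The share that rose was thus above the share of all genes in each strain, while the share that fell was near it in crh-1 null and below it in the other strains. Over both directions 34.8%, 54.3% and 34.8% of members passed. In that order of strains the median member changed by 0.14, 0.05 and 0.12, and the median of all tested genes by -0.01, -0.09 and -0.15. In all, 31 members passed the threshold in at least 1 strain and 15 in none, that is 67.4% in at least 1 against 61.9% of all genes.

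**Figure D1:**
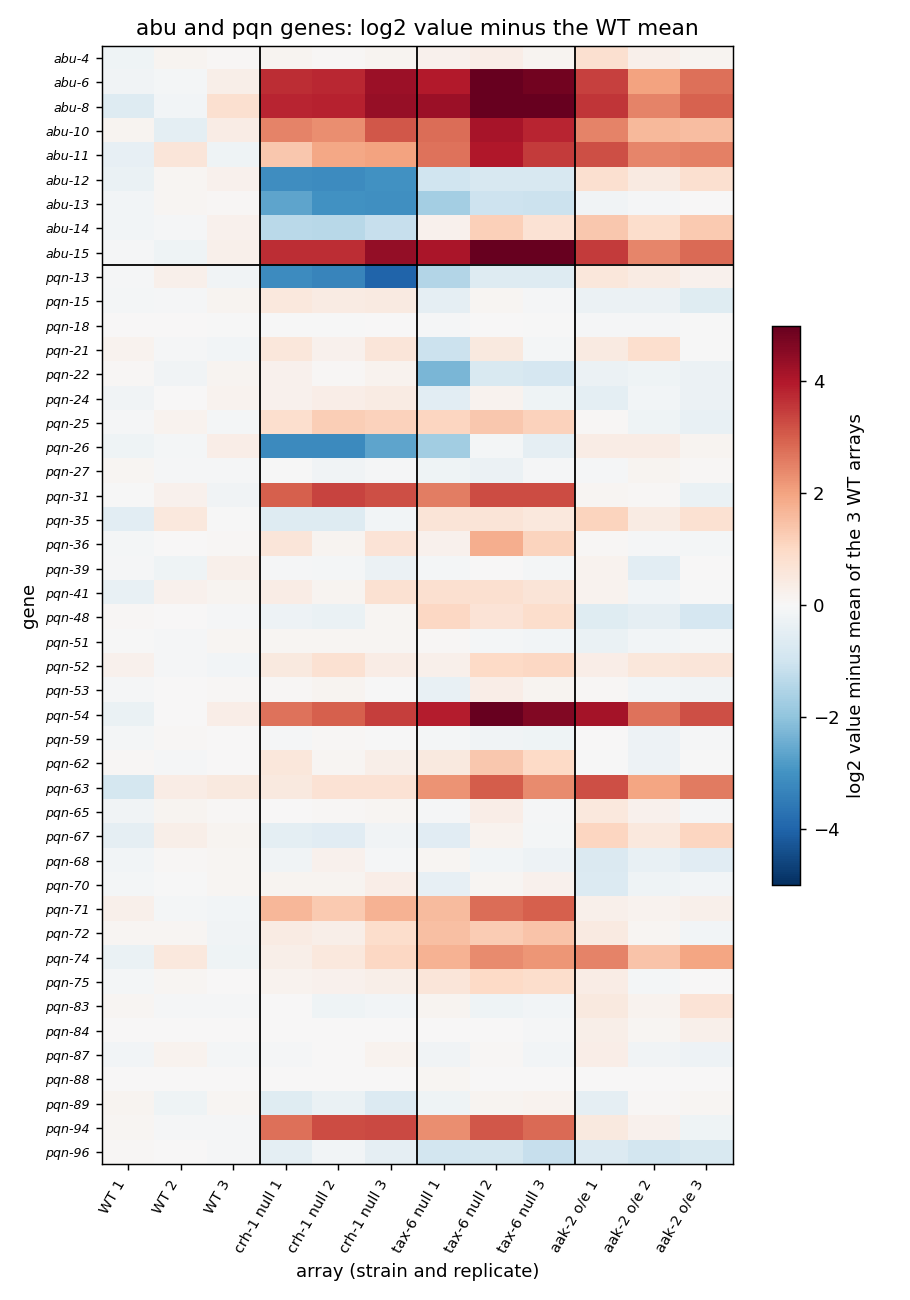
Each row is 1 of the 46 detected abu and pqn genes and each column 1 of the 12 arrays, and the colour gives the log2 value minus the mean of the 3 WT arrays, with colours at their end beyond the scale. Rows from abu-6 to abu-11, abu-15 and pqn-54 were high on all 9 arrays of the altered strains, rows abu-12, abu-13, pqn-13 and pqn-26 were low in crh-1 null, and 14 pqn rows are of genes that passed in no strain.

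Among the members, the widest rises in the mutants crh-1 null and tax-6 null were those of abu-6, abu-8 and abu-15, while pqn-54 rose most in aak-2 o/e. The 3 abu genes were measured with _x probe sets that can bind transcripts of related genes. In the WBcel235 gene order, abu-15, abu-6 and abu-7 lie next to one another. On the WT arrays abu-8 read 4.99, 5.49 and 6.45. It read 9.45, 9.47 and 9.98 in crh-1 null, 9.92, 11.36 and 10.84 on the tax-6 null arrays and 9.2, 8.11 and 8.57 in aak-2 o/e. Every array of the 3 altered strains lay above every WT array. The rise of abu-8 was 3.99 ± 0.42 in crh-1 null (15.9-fold, adjusted p = 1.89e-05), 5.06 ± 0.42 on the tax-6 null arrays (33.4-fold, 2.08e-06) and 2.99 ± 0.42 in aak-2 o/e (7.92-fold, 0.000181).

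The abu-6 probe set read 5.4, 5.51 and 5.87 in WT, 9.28, 9.35 and 9.85 in crh-1 null, 9.56, 11.1 and 10.4 on the tax-6 null arrays and 8.99, 7.6 and 8.33 in aak-2 o/e. The abu-15 probe set read 5.45, 5.26 and 5.74 in WT, 9.2, 9.2 and 9.88 in crh-1 null, 9.57, 10.98 and 10.68 on the tax-6 null arrays and 8.99, 7.93 and 8.32 in aak-2 o/e. Both were clear of WT on all 9 altered arrays, with aak-2 o/e below both mutants. The rises were 3.9 ± 0.38, 4.76 ± 0.38 and 2.72 ± 0.38 for abu-6 and 3.94 ± 0.36, 4.93 ± 0.36 and 2.93 ± 0.36 for abu-15, in the same order of strains. A probe set shared by abu-7 and abu-8 rose by 3.63, 4.57 and 2.61, and it names neither gene. Since these probe sets can share transcripts, how many of the 4 genes moved cannot be read from them.

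The order among the altered strains was tested directly. The 3 genes were higher in tax-6 null than in aak-2 o/e, by 2.05 for abu-6 (adjusted p = 0.000834), 2.08 for abu-8 (0.00135) and 2 for abu-15 (0.000559). Between crh-1 null and the other two the differences were near 1. Against aak-2 o/e they passed for abu-6 (1.19, adjusted p = 0.0256) and abu-15 (1.01, 0.0369) and missed for abu-8 (1.01, 0.0709). The abu-6 call was lost in 4 of 21 alternative analyses, among them leaving out aak-2 o/e replicate 2 or 3 or crh-1 null replicate 3 (adjusted p up to 0.109). The abu-15 call was lost in 7, among them leaving out WT replicate 1, any crh-1 null array or aak-2 o/e replicate 2 or 3 (up to 0.144). Against tax-6 null abu-15 passed (-0.99, adjusted p = 0.0482) but lost that call in 11 of the 21. abu-6 and abu-8 did not pass with the brightest probe set (0.103 and 0.0649), and the other detected abu-8 probe set did (-1.17, 0.0437).

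abu-10 and abu-11 rose with them. The probe set of abu-10 has no suffix and read 4.44, 3.82 and 4.67 in WT, 6.78, 6.62 and 7.41 in crh-1 null, 7.11, 8.43 and 8.13 on the tax-6 null arrays and 6.78, 5.93 and 5.85 in aak-2 o/e. No altered array overlapped WT, and the rises were 2.62 ± 0.37 (adjusted p = 0.000212), 3.58 ± 0.37 (1.1e-05) and 1.87 ± 0.37 (0.00205). The abu-11 probe set (_s) read 5.16, 6.19 and 5.35 in WT, 6.93, 7.52 and 7.58 in crh-1 null, 8.29, 9.57 and 9.06 on the tax-6 null arrays and 8.79, 8 and 8.09 in aak-2 o/e. Its order of means differed from that of abu-6, with crh-1 null the lowest of the altered strains. The direct difference of crh-1 null from aak-2 o/e was -0.95 (adjusted p = 0.046), a call lost in 9 of 21 alternatives. The rises of abu-11 were 1.77 ± 0.35, 3.4 ± 0.35 and 2.72 ± 0.35, and it was lower in crh-1 null than in tax-6 null by a log2 change of -1.63 (adjusted p = 0.00351).

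Further genes of the class were measured only by probe sets that carry several abu or pqn symbols, and 11 genes have no probe set of their own: abu-1, abu-5, abu-7, abu-9, pqn-2, pqn-57, pqn-76, pqn-78, pqn-79, pqn-90 and pqn-91. The probe set of pqn-2 and abu-1, neighbours in the gene order, read 4.24, 5.43 and 5.92 in WT, 7.7, 7.63 and 8.02 in crh-1 null, 9.52, 11.28 and 10.53 on the tax-6 null arrays and 9.65, 8.56 and 8.98 in aak-2 o/e. It was above WT on all 9 altered arrays, by 2.59 in crh-1 null (adjusted p = 0.00166), 5.25 on the tax-6 null arrays (3.9e-06) and 3.87 in aak-2 o/e (6.43e-05). The probe set of pqn-57 and abu-9, also neighbours, was below 4 on all WT arrays, rose at least 2.69-fold in crh-1 null and at least 4.65-fold in tax-6 null, and changed by 1.01 in aak-2 o/e (adjusted p = 0.117). It met the detection filter only through altered arrays.

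The 6 probe sets of pqn-76, pqn-78, pqn-79, pqn-90, pqn-91 and abu-5 had another order. None passed in crh-1 null. The 1 detected in WT, of pqn-79 and pqn-76, rose by 0.95 ± 0.29 on the tax-6 null arrays (adjusted p = 0.0206) and 2.01 ± 0.29 in aak-2 o/e (0.000252). The other 5 were below 4 on all WT arrays and passed in both of these strains, at least 1.19-fold to 2.33-fold higher in tax-6 null and at least 2.8-fold to 4.42-fold higher in aak-2 o/e. These 5 met the detection filter only through altered arrays, so their rises are not independent of that filter. In aak-2 o/e the 6 read 4.81 to 6.87, above every WT array, of which most were below 4. The direct contrast put crh-1 null below aak-2 o/e for all 6. The log2 change was -2.45 to -1.96 for the 3 with a crh-1 null array above 4, and the other 3 were at least 2.8-fold to 3.67-fold lower. These probe sets share targets, so they are not 6 separate measurements. abu-5, pqn-78 and pqn-79 lie next to one another in the gene order, as do pqn-90 and pqn-91.

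abu-12, abu-13 and abu-14 moved the other way in crh-1 null. ABU-14 is known as a component of the pharyngeal cuticle. The abu-12 probe set (_s) read 8.4, 8.83 and 8.94 in WT, 5.63, 5.56 and 5.7 in crh-1 null, 7.73, 7.91 and 7.9 on the tax-6 null arrays and 9.51, 9.17 and 9.51 in aak-2 o/e. The arrays of no pair of strains overlapped. abu-12 fell by 3.1 ± 0.15 in crh-1 null (8.55-fold, adjusted p = 4.02e-08) and fell by 0.87 ± 0.15 in tax-6 null (0.000505), and it rose by 0.67 ± 0.15 in aak-2 o/e (0.00436).

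The abu-13 probe set (_s) read 11.63, 11.85 and 11.8 in WT, 9.14, 8.72 and 8.7 in crh-1 null, 10.06, 10.71 and 10.69 on the tax-6 null arrays and 11.57, 11.71 and 11.78 in aak-2 o/e. Both mutants lay below all WT arrays, while aak-2 o/e overlapped WT. abu-13 fell by 2.91 ± 0.18 in crh-1 null (adjusted p = 2.84e-07) and fell by 1.27 ± 0.18 in tax-6 null (0.000137), and the change in aak-2 o/e was -0.07 (0.807). The fall was deeper in crh-1 null than in tax-6 null, with a direct difference of -2.22 for abu-12 (adjusted p = 3.43e-07) and -1.63 for abu-13 (2.56e-05).

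abu-14 read 10.65, 10.72 and 10.98 in WT, 9.43, 9.39 and 9.64 in crh-1 null, 11.01, 11.97 and 11.52 on the tax-6 null arrays and 12.12, 11.64 and 12.1 in aak-2 o/e, with no suffix on its probe set. It was low in crh-1 null and high in aak-2 o/e without overlap. The changes were -1.29 ± 0.22 in crh-1 null (adjusted p = 0.000929) and 1.17 ± 0.22 in aak-2 o/e (0.00144). In tax-6 null the rise of 0.72 ± 0.22 passed (0.0189). That call was lost in 5 of 22 alternatives, among them leaving out WT replicate 1 or 2 or tax-6 null replicate 2 (adjusted p up to 0.0716). The second abu-14 probe set gave -1.32, 0.79 and 1.13, with the change in tax-6 null not passing (0.0705). The tests between strains put abu-14 lower in crh-1 null than in tax-6 null by a log2 change of -2.01 (2.26e-05) and than in aak-2 o/e by -2.47 (1.86e-06).

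abu-4 was the 1 detected abu gene that passed in no strain. Its _x probe set read 4.8, 5.15 and 5.07 in WT, 5.16, 5.08 and 5.16 in crh-1 null, 5.24, 5.35 and 5.16 on the tax-6 null arrays and 5.8, 5.25 and 5.16 in aak-2 o/e. Of the 9 abu genes, 5 rose and 3 fell in crh-1 null, 6 rose and 2 fell in tax-6 null, and 7 rose and 0 fell in aak-2 o/e, where abu-4 and abu-13 were the others and 0 fell at an unadjusted p under 0.05 in limma either. The shares that rose and fell were 55.6% and 33.3%, 66.7% and 22.2%, and 77.8% and 0%, beside 9.88% and 10.7%, 18.7% and 26.3%, and 14.2% and 19.3% of all genes. The median abu change was 1.77, 3.4 and 1.87. These counts, shares and medians take abu-6, abu-8 and abu-15 as separate genes, although their _x probe sets can share transcripts. The split between abu-6, abu-8, abu-10, abu-11 and abu-15 on one side and abu-12, abu-13 and abu-14 on the other was drawn after the values were seen and was not tested as a grouping.

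**Figure D2:**
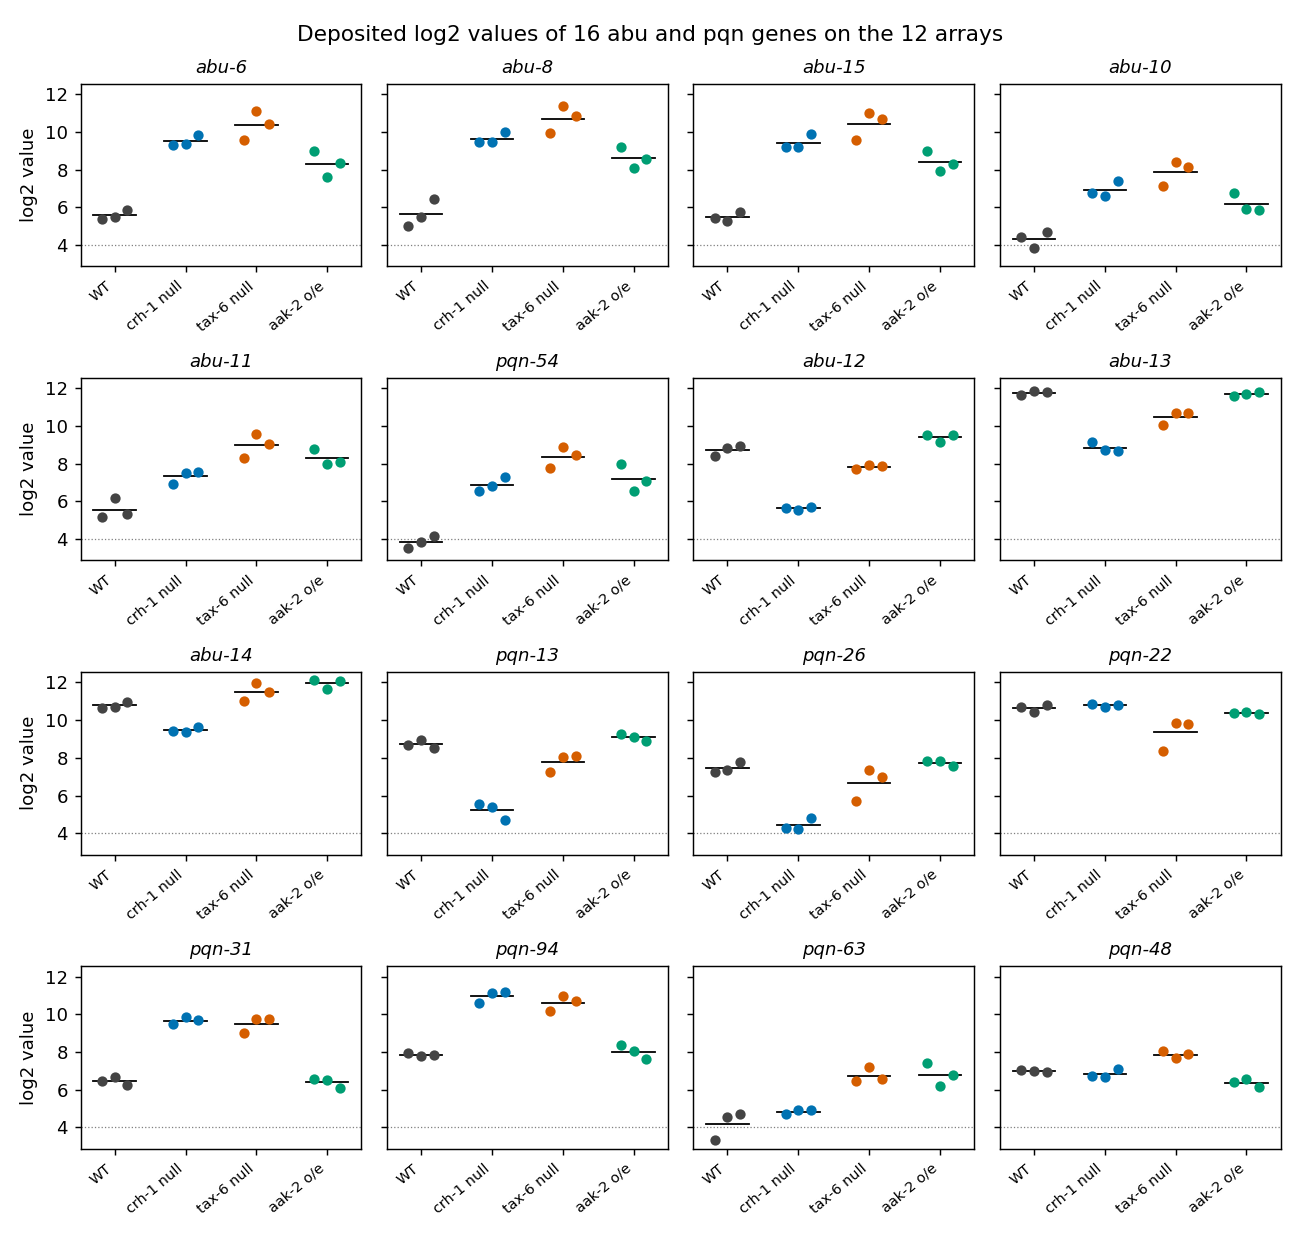
Deposited log2 values of 16 abu and pqn genes, 1 panel for each gene, with 1 point for each of the 3 arrays of a strain and a bar at their mean; the dotted line marks the detection value of 4. The abu-6, abu-8 and abu-15 panels show all altered arrays above WT, and the abu-12 and abu-13 panels show crh-1 null lowest.

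The pqn genes were more mixed. Of 37, 5 rose and 3 fell in crh-1 null, 14 rose and 3 fell in tax-6 null and 6 rose and 3 fell in aak-2 o/e, and their median changes were 0.09, 0.02 and 0. The pqn shares were near those of all genes in crh-1 null (13.5% higher against 9.88%, 8.11% lower against 10.7%) and for rises in aak-2 o/e (6 of 37, against 14.2%). In tax-6 null 37.8% of them rose against 18.7% of all genes, and 8.11% fell against 26.3%. The pqn share that fell in aak-2 o/e was 8.11%, against 19.3% of all genes. Falls were thus scarcer among pqn genes than among all genes in these last strains. pqn-54 was the 1 pqn gene that rose in all 3 strains. It read 3.52, 3.85 and 4.16 in WT, 6.56, 6.82 and 7.29 in crh-1 null, 7.77, 8.9 and 8.46 on the tax-6 null arrays and 8.01, 6.55 and 7.07 in aak-2 o/e, from a probe set without a suffix. All 9 altered arrays were above every WT array. The rises were 3.05 ± 0.37 (adjusted p = 5.96e-05), 4.54 ± 0.37 (1.72e-06) and 3.37 ± 0.37 (2.79e-05). tax-6 null exceeded crh-1 null, with a crh-1 minus tax-6 difference of -1.49 (0.00728), whereas crh-1 null and aak-2 o/e overlapped (-0.32, 0.514).

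pqn-63 and pqn-74 rose in aak-2 o/e as well as tax-6 null. pqn-63 read 3.31, 4.57 and 4.69 in WT, 4.69, 4.92 and 4.91 in crh-1 null, 6.44, 7.21 and 6.56 on the tax-6 null arrays and 7.41, 6.18 and 6.78 in aak-2 o/e. The last 2 strains were clear of WT and of crh-1 null. The changes of pqn-63 were 0.65 (adjusted p = 0.285), 2.55 ± 0.37 (0.000173) and 2.6 ± 0.37 (0.000212), and crh-1 null was lower than tax-6 null by -1.9 (0.00185) and than aak-2 o/e by -1.95 (0.001). pqn-74 (_s) rose by 2.11 ± 0.3 on the tax-6 null arrays and 1.96 ± 0.3 in aak-2 o/e (0.000149 and 0.000361) and changed by 0.63 in crh-1 null (0.192). It too was lower in crh-1 null than in either of them by direct contrast, by -1.48 (0.00235) and -1.34 (0.00322).

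pqn-31, pqn-94, pqn-25 and pqn-71 rose in crh-1 null and tax-6 null and did not pass in aak-2 o/e. pqn-31 read 6.44, 6.66 and 6.27 in WT, 9.46, 9.83 and 9.68 in crh-1 null, 9.03, 9.73 and 9.74 on the tax-6 null arrays and 6.56, 6.53 and 6.11 in aak-2 o/e. Both mutants stood far above WT, and the aak-2 o/e arrays overlapped it. The changes of pqn-31 were 3.2 ± 0.2 (adjusted p = 3.24e-07), 3.04 ± 0.2 (3.45e-07) and -0.06 ± 0.2 (0.857). pqn-94 read 7.97, 7.8 and 7.82 in WT, 10.6, 11.13 and 11.17 in crh-1 null, 10.17, 10.98 and 10.69 on the tax-6 null arrays and 8.35, 8.06 and 7.63 in aak-2 o/e. It had the same order, with changes of 3.1 ± 0.23 (1.27e-06), 2.75 ± 0.23 (2.37e-06) and 0.15 ± 0.23 (0.659).

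The direct contrasts separated both genes from aak-2 o/e. pqn-31 was higher than in aak-2 o/e by 3.26 in crh-1 null (adjusted p = 1.22e-07) and by 3.1 in tax-6 null (1.27e-07), and pqn-94 by 2.95 and 2.6 (7.33e-07 and 1.78e-06). Between the mutants the differences of 0.16 for pqn-31 and 0.35 for pqn-94 did not pass (0.584 and 0.263). pqn-25 (_s) rose by 1.06 ± 0.15 and 1.19 ± 0.15 in the mutants. pqn-71 was below 4 on all WT arrays (3.45, 3.11 and 3.07) and rose at least 1.71-fold in crh-1 null (adjusted p = 0.00197) and at least 3.19-fold in tax-6 null (3.56e-05). Its probe set met the detection filter only through the arrays of the mutants, where it was high.

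pqn-13 and pqn-26 fell with abu-12 and abu-13 in crh-1 null. pqn-13 read 8.68, 8.96 and 8.53 in WT, 5.56, 5.4 and 4.72 in crh-1 null, 7.25, 8.06 and 8.09 on the tax-6 null arrays and 9.27, 9.12 and 8.92 in aak-2 o/e. pqn-26 read 7.23, 7.35 and 7.78 in WT, 4.26, 4.25 and 4.83 in crh-1 null, 5.72, 7.37 and 6.99 on the tax-6 null arrays and 7.81, 7.81 and 7.57 in aak-2 o/e. crh-1 null was the lowest strain for both, clear of every other array. pqn-13 fell by 3.5 ± 0.25 in crh-1 null (11.3-fold, adjusted p = 1.05e-06) and fell by 0.92 ± 0.25 in tax-6 null (0.0113), with 0.38 in aak-2 o/e (0.28). pqn-26 fell by 3 ± 0.34 in crh-1 null (8.01-fold, 3.82e-05), and its changes of -0.76 on the tax-6 null arrays and 0.28 in aak-2 o/e did not pass (0.0935 and 0.57).

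Both genes were lower in crh-1 null than in tax-6 null, by -2.57 for pqn-13 (adjusted p = 1.08e-05) and -2.24 for pqn-26 (0.000328), and lower than in aak-2 o/e, by -3.88 (1.84e-07) and -3.28 (7.45e-06). pqn-89 (_s) was the last gene that fell in crh-1 null. It read 7.65, 7.32 and 7.63 in WT and 6.92, 7.19 and 6.86 in crh-1 null, a change of -0.55 ± 0.17 (0.0472). Its 3 arrays were below WT, but the call was lost in 10 of 21 alternatives, among them leaving out WT replicate 1 or 3 or crh-1 null replicate 1 or 3, at adjusted p up to 0.163.

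pqn-22, pqn-96, pqn-48 and pqn-68 held the remaining falls. pqn-22 (_s) read 10.69, 10.45 and 10.79 in WT, 10.84, 10.71 and 10.81 in crh-1 null, 8.36, 9.87 and 9.81 on the tax-6 null arrays and 10.36, 10.41 and 10.35 in aak-2 o/e. Its fall of 1.3 ± 0.31 in tax-6 null (adjusted p = 0.00475) came with a low replicate 1, and the 3 tax-6 null arrays were the lowest of all 12. pqn-96 read 9.98, 9.97 and 9.88 in WT, 9.47, 9.79 and 9.5 in crh-1 null, 9.02, 9.07 and 8.79 on the tax-6 null arrays and 9.26, 9.01 and 9.18 in aak-2 o/e. It fell by 0.98 ± 0.12 on the tax-6 null arrays (5.33e-05) and fell by 0.8 ± 0.12 in aak-2 o/e (0.000362), but its other detected probe set gave -0.41 and -0.2 and passed in neither (0.0517 and 0.367).

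pqn-48 was called in opposite directions in 2 strains, as were abu-12 and abu-14. It read 7.05, 7 and 6.93 in WT, 6.75, 6.66 and 7.08 in crh-1 null, 8.03, 7.66 and 7.87 on the tax-6 null arrays and 6.4, 6.55 and 6.16 in aak-2 o/e. All tax-6 null arrays lay above WT and all aak-2 o/e arrays below. The changes were 0.86 ± 0.14 (adjusted p = 0.000494) and -0.62 ± 0.14 (0.00629), and the direct difference between these strains was 1.48 (3.9e-06). pqn-68 read 8.17, 8.36 and 8.38 in WT, 8.14, 8.5 and 8.26 in crh-1 null, 8.4, 8.15 and 8.03 on the tax-6 null arrays and 7.57, 7.91 and 7.75 in aak-2 o/e, where it was below all WT arrays and fell by 0.56 ± 0.14 (0.00943).

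Other pqn genes rose in 1 strain. In tax-6 null they were pqn-72 (_x, 1.39), pqn-36 (_s, 1.05), pqn-62 (0.93), pqn-75 (0.84), pqn-41 (0.77) and pqn-52 (0.76). PQN-41 is a glutamine-rich protein known from the death of the male linker cell. The pqn-41 arrays read 5.38, 5.95 and 5.88 in WT and 6.56, 6.56 and 6.4 in tax-6 null, without overlap (adjusted p = 0.00462). In aak-2 o/e they were pqn-67 (0.89), pqn-35 (0.76) and pqn-83 (_s, 0.46). The pqn-35 arrays overlapped WT, and its call was lost in 7 alternatives, as was that of pqn-83 in 6 and that of pqn-67 without WT replicate 1 (0.0526). Of the detected probe sets, 1 of 3 for pqn-52 and 1 of 5 for pqn-36 did not pass in tax-6 null, and 3 of 4 for pqn-83 did not pass in aak-2 o/e.

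The 15 members that passed in no strain changed by -0.41 to 0.46 over all 3 comparisons with WT. They were abu-4, pqn-15, pqn-18, pqn-21, pqn-24, pqn-27, pqn-39, pqn-51, pqn-53, pqn-59, pqn-65, pqn-70, pqn-84, pqn-87 and pqn-88. The second detected probe set of pqn-70 (_s) did pass in aak-2 o/e, with -0.46 ± 0.13 (adjusted p = 0.0149). pqn-15 (_s) lay close to the threshold, with 0.45 in crh-1 null (0.0509) and -0.41 in aak-2 o/e (0.0511). Neither strain overlapped WT, and it passed in 8 and 6 of 22 alternatives. Its other detected probe set gave 0.33 and -0.08 (0.176 and 0.728). pqn-59, the ortholog of the stress granule protein gene UBAP2L, read 12.17, 12.29 and 12.28 in WT, 12.19, 12.32 and 12.23 in crh-1 null, 12.16, 12.06 and 12.05 on the tax-6 null arrays and 12.28, 11.99 and 12.19 in aak-2 o/e. The tax-6 null arrays lay just below the WT arrays and the others overlapped them, with changes of 0, -0.16 and -0.1. The 12 genes too dim to test were abu-2, abu-3, pqn-8, pqn-10, pqn-11, pqn-16, pqn-20, pqn-29, pqn-42, pqn-73, pqn-80 and pqn-82. The highest value among them was 4.94, on 1 array for pqn-29.

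**Figure D3:**
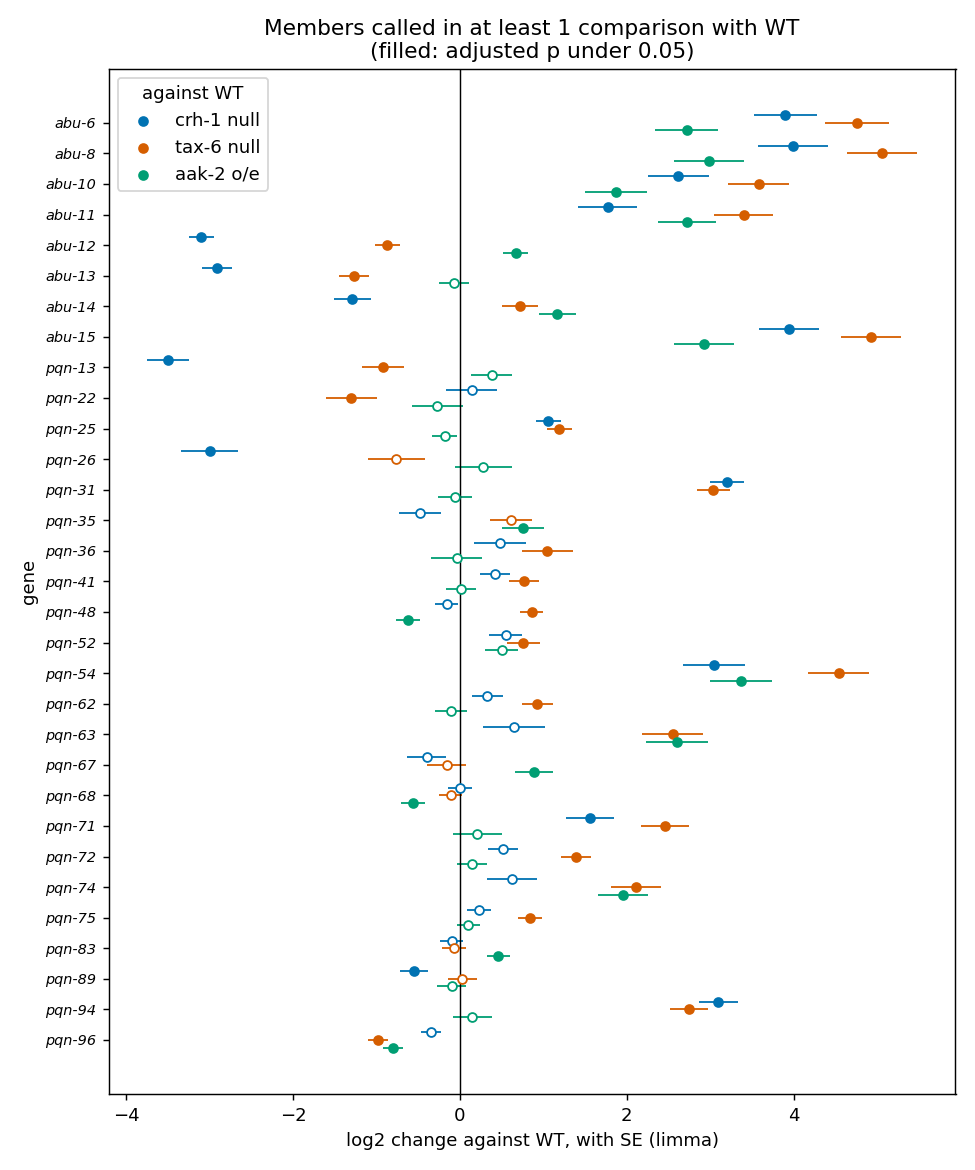
Log2 change against WT with its SE from limma, 3 arrays against 3, for the 31 members that passed in at least 1 strain; filled points have an adjusted p under 0.05. The largest rises were those of abu-8, abu-15 and abu-6 in tax-6 null (5.06, 4.93 and 4.76), and the deepest falls those of pqn-13 (-3.5) and abu-12 (-3.1) in crh-1 null.

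Direct contrasts tested the strains against each other. Of the 46 members 21 differed between crh-1 null and tax-6 null (45.7%, against 37.9% of all genes), 4 higher in crh-1 null (background 21.4%) and 17 lower (background 16.6%). In crh-1 null against aak-2 o/e 24 differed (52.2%, against 46.4%), 13 higher (background 27.4%) and 11 lower (background 19%). In tax-6 null against aak-2 o/e 24 differed (52.2%, against 50.1%), 16 higher (background 27.6%) and 8 lower (background 22.4%). The totals over both directions were near the background. Split by direction, the member shares were 8.7% higher and 37% lower for crh-1 null against tax-6 null, 28.3% and 23.9% for crh-1 null against aak-2 o/e and 34.8% and 17.4% for the last pair. All 9 abu genes had a lower mean in crh-1 null than in tax-6 null, as had 4315 of all 10365 genes. Of the 9, 5 passed (55.6%, against 16.6% of all genes), of which abu-15 lost its call in 11 of 21 alternatives. The 9 are not separate measurements, since the _x probe sets of abu-6, abu-8 and abu-15 can share transcripts. pqn-22 (1.44, adjusted p = 0.00318) and pqn-96 (0.63, 0.00178) were the members most clearly higher in crh-1 null than in tax-6 null.

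Other products of the pharyngeal cuticle were read beside the members. The classes idpa, idpb, idpc, idpp, nspb and fipr code for small or disordered secreted proteins, many of them known from the pharynx, and 30 of their 38 genes were detected. Of these 30, 13 rose and 2 fell in crh-1 null (43.3% and 6.67%, against 9.88% and 10.7% of all genes). In tax-6 null 22 rose and 3 fell (73.3% and 10%, against 18.7% and 26.3%). In aak-2 o/e 17 rose and 4 fell (56.7% and 13.3%, against 14.2% and 19.3%). The medians were 0.55, 1.48 and 0.93, and the part of these genes in the member changes was not tested. Their mean log2 value ranged over the 3 WT arrays from 5.39 to 5.76, over the crh-1 null arrays from 6.52 to 6.86, from 6.94 to 7.47 on the tax-6 null arrays and from 6.25 to 6.55 in aak-2 o/e. idpp-12 (_x) rose by 4.01, 4.03 and 3.29 in the 3 strains. nspb-12 (_x), below 4 on all WT arrays, rose at least 7.46-fold, 11.1-fold and 1.31-fold. nspb-10 (_x) rose by 3.79, 4.63 and 1.01, fipr-24 (_x) by 4.26 in tax-6 null and idpp-9 by 3.05 there and 3.08 in aak-2 o/e. idpp-14 rose at least 3.47-fold in crh-1 null and 1.24-fold in tax-6 null.

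Markers of pharyngeal muscle, glands and identity were counted too, since in whole-animal RNA fewer cells of a type and less RNA per cell cannot be told apart. The gene ceh-22 was too dim. Of 17 detected genes 8 rose and 2 fell in crh-1 null (47.1% and 11.8%, against 9.88% and 10.7% of all genes). In tax-6 null 5 rose and 3 fell (29.4% and 17.6%, against 18.7% and 26.3%). In aak-2 o/e 0 rose and 3 fell (0% and 17.6%, against 14.2% and 19.3%). Their mean level lay at 7.17 to 7.22 on the WT arrays, 7.5 to 7.65 on those of crh-1 null, 7.46 to 7.77 on those of tax-6 null and 6.92 to 7.14 on those of aak-2 o/e. The medians were 0.55, 0.25 and -0.11, and the part of these cells in the member changes was not tested. In limma 2 of the 17 were higher and 6 lower in aak-2 o/e at an unadjusted p under 0.05. The ABC transporter gene pgp-14 rose by 3.61 ± 0.22 in crh-1 null and 3.46 ± 0.22 in tax-6 null (adjusted p = 2.77e-07 and 2.49e-07), and phat-3 by 0.77 and 1.16, while phat-5 rose by 2.86 in tax-6 null with an SD of 1.26. chs-2, the chitin synthase of the pharynx, fell by 1.6 ± 0.13 in crh-1 null (2.47e-06) and fell by 0.83 ± 0.13 in tax-6 null (0.000286), and eat-20 fell by 1.29 and 0.8. The pharyngeal muscle genes tnc-2, tni-4 and myo-1 fell in aak-2 o/e (-0.76, -0.6 and -0.59) and rose in crh-1 null (0.74, 0.56 and 0.55). Their changes in tax-6 null were 0.36, 0.25 and -0.34, none of them passing.

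Moulting and stage genes moved with the strains as well, and their part in the abu and pqn changes was not tested. Of 32 moulting genes 7 rose and 16 fell in crh-1 null (21.9% and 50%, against 9.88% and 10.7% of all genes). In tax-6 null 5 rose and 19 fell (15.6% and 59.4%, against 18.7% and 26.3%). In aak-2 o/e 2 rose and 13 fell (6.25% and 40.6%, against 14.2% and 19.3%). Their mean level was 10.4 to 10.49 on the WT arrays, 9.79 to 9.97 on those of crh-1 null, 9.9 to 10 on those of tax-6 null and 9.98 to 10.13 on those of aak-2 o/e. The hedgehog-related gene wrt-4 changed by -4.46, -1.82 and 0.58, and the patched-related genes ptr-16 by -4.02, -1.34 and -0.04 and ptr-18 by -2.85, -0.89 and 0.02. In crh-1 null these falls stood beside those of abu-12, abu-13, pqn-13 and pqn-26. ptr-23 rose in all 3 strains, by 1.35, 2.85 and 1.74. ptr-4 changed by -1.43 and mlt-7 by 1.65 in tax-6 null, and noah-2 by -0.99, the protease gene nas-37 by -1.38 and wrt-1 by -1.41 in aak-2 o/e.

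In the list for the larval to adult change lin-14 was too dim, and col-7 and col-62 had no probe set of their own. Of the 9 genes left, 1 rose and 3 fell in crh-1 null. These were 11.1% and 33.3%, against 9.88% and 10.7% of all genes. In tax-6 null 5 rose and 4 fell (55.6% and 44.4%, against 18.7% and 26.3%). In aak-2 o/e 2 rose and 2 fell (22.2% each, against 14.2% and 19.3%). Their mean level was 8.27 to 8.5 on the WT arrays, 7.53 to 7.92 on those of crh-1 null, 9.2 to 9.41 on those of tax-6 null and 9.1 to 9.31 on those of aak-2 o/e. Since the genes moved in both directions, this mean does not measure stage. The adult collagen gene col-19 was at 4.57 ± 0.61 (SD, n = 3) in WT, 4.23 ± 0.33 in crh-1 null, 12.2 ± 0.19 on the tax-6 null arrays and 9.93 ± 0.62 in aak-2 o/e. The yolk protein gene vit-2 rose by 2.78 on the tax-6 null arrays and 3.67 in aak-2 o/e. The collagen gene col-49 fell by 3.27 in crh-1 null and fell by 0.81 in tax-6 null, and bli-2 changed by -1.68, -1.71 and -0.93 and bli-1 by -1.15, -1.59 and -0.56, the last not passing. The col-19 change in crh-1 null was -0.34 ± 0.33 (adjusted p = 0.58), and the part of stage in the member changes was not tested.

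**Figure D4:**
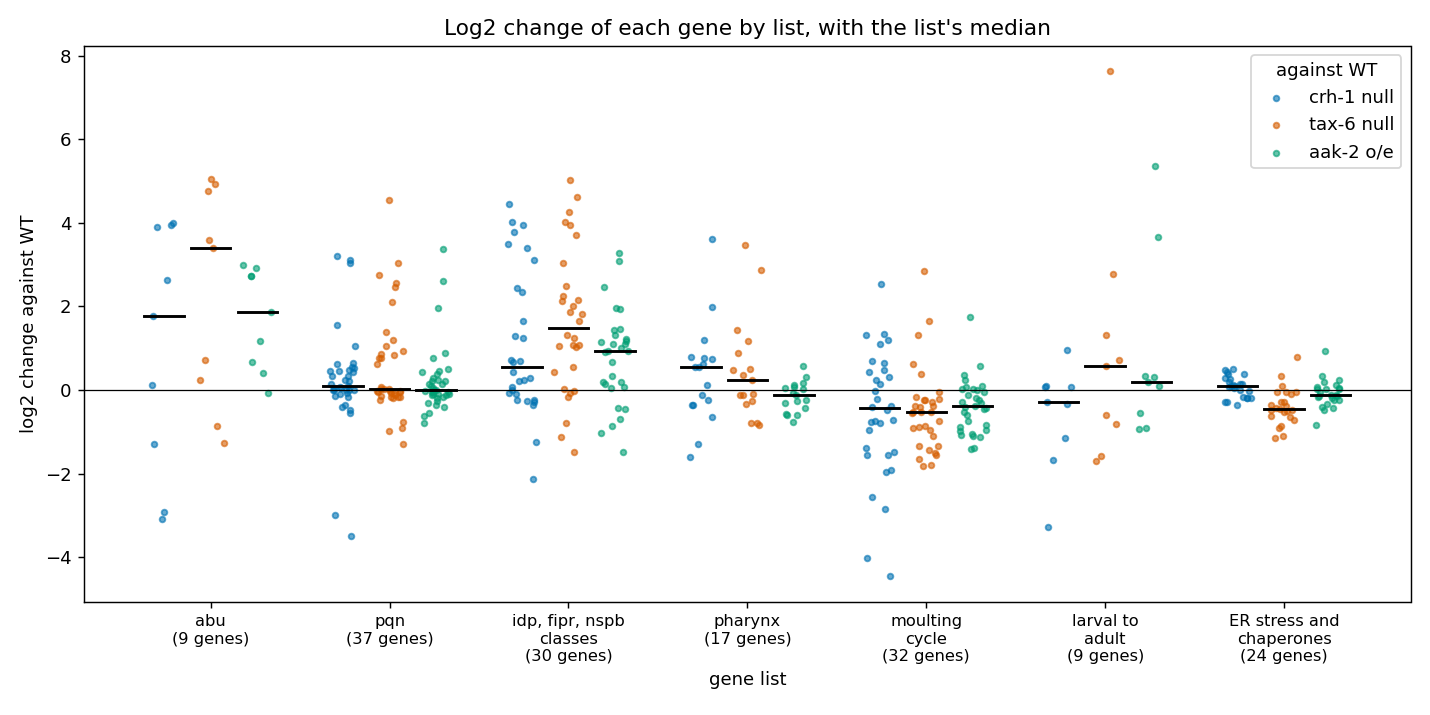
Log2 change against WT for each gene of the abu and pqn classes and of 5 comparison lists, with the number of detected genes under each name, points coloured by strain and a bar at the median. The abu medians were 1.77 in crh-1 null, 3.4 in the tax-6 null strain and 1.87 in aak-2 o/e, and the pqn medians were near 0.

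Genes of ER stress, from whose study the abu class took its name, were counted as well, and their part in the member changes was not tested. Of 24 ER stress and chaperone genes 1 rose and 2 fell in crh-1 null (4.17% and 8.33%, against 9.88% and 10.7% of all genes). In tax-6 null 1 rose and 13 fell (4.17% and 54.2%, against 18.7% and 26.3%). In aak-2 o/e 1 rose and 3 fell (4.17% and 12.5%, against 14.2% and 19.3%). The medians were 0.09, -0.44 and -0.12. The mean level was 10.71 to 10.78 on the WT arrays, 10.78 to 10.88 on those of crh-1 null, 10.25 to 10.43 on those of tax-6 null and 10.63 to 10.71 on those of aak-2 o/e. hsp-4, the BiP gene that marks ER stress, changed by 0.5 ± 0.17 in crh-1 null (adjusted p = 0.0644), -0.72 ± 0.17 on the tax-6 null arrays (0.00492) and 0.94 ± 0.17 in aak-2 o/e (0.00136). In tax-6 null the protein disulfide isomerase gene pdi-2 changed by -1.11, dnj-27 by -0.87 and cdc-48.2 by -0.9. The 1 gene of the list that rose there was atf-6 (_s), by 0.8 ± 0.18 (adjusted p = 0.0033). dnj-27 also fell by 0.85 in aak-2 o/e and dnj-7 fell by 0.47 there, while in crh-1 null cup-2 changed by -0.37, dnj-27 by -0.3 and dnj-7 by 0.43.

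Engulfment genes were read for the link to CED-1. Of 8 detected, 2 rose in crh-1 null and 3 fell in tax-6 null. In aak-2 o/e 0 passed, in limma also at an unadjusted p under 0.05. The shares called were 25%, 37.5% and 0%, against 20.6%, 45% and 33.5% of all genes in either direction. ced-1 rose by 0.69 ± 0.17 in crh-1 null (adjusted p = 0.0109) and changed by 0.22 and 0.08 in the other strains (0.306 and 0.749), and ced-6 rose by 0.39 in crh-1 null. The 3 that fell were psr-1 (-0.51), ced-10 (-0.39) and ced-5 (-0.37), all in tax-6 null. Of 13 cytosolic heat shock genes listed, 8 had a probe set of their own. hsp-16.1, hsp-16.11, hsp-16.48, hsp-16.49 and daf-21 had none. Of the 8, 1 rose in crh-1 null and 2 fell in tax-6 null. In aak-2 o/e 0 passed, where limma gave 1 at an unadjusted p under 0.05. The shares called were 12.5%, 25% and 0%, below the 20.6%, 45% and 33.5% of all genes. The genes called were dnj-13 with 0.5 in crh-1 null and hsp-70 with -2.01 and hsp-1 with -0.37 in tax-6 null.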

How the data were processed

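The authors deposited log2 values for 22625 probe sets on 12 arrays, with GCRMA and GCOS 1.4 named per the submitters' processing notes. Its version and settings are not given in any source used here. GCRMA corrects background, normalizes between arrays and summarises probe sets, and 29.8% of values lay within 0.1 of the lowest, 2.11, which compresses changes of dim probe sets. Where all arrays of a strain lay below 4, a fold is a lower bound. A probe set below 4 on all WT arrays could meet the detection filter only through altered arrays, so its rise is not independent of the filter. The number of arrays, 3 for each strain, limits the precision. RNA of all pools was extracted together 12 hours before the arrays, per the labels' protocols, and replicate pools were made on different days.

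Names came from the platform annotation (20766 with 1 symbol, 887 with several, 895 with none) and the WBcel235 gene table, which matched 20701 of them. The members were named by 93 probe sets with 1 symbol, 67 of them detected. The probe sets used were 23 without a suffix, 17 with _s and 6 with _x. An _s or _x probe set can bind related transcripts. The 13396 detected probe sets were fitted with limma 3.58.1 in R 4.3.3 (lmFit, eBayes), 1 mean per strain over all 12 arrays, two-sided, with Benjamini-Hochberg adjustment. The fit was tested on simulated data. The members and gene lists were chosen with earlier results of these data known. Array values are given for the 6 widest rises and falls per strain whose arrays lay outside the WT range, the 2 widest differences each way per direct contrast and members called in opposite directions. List genes are the 3 with the smallest adjusted p per list and strain. pqn-41, pqn-59 and abu-4 were given array values after theirs were seen. Alternatives changed the filter, normalization, threshold, samples, weights, block, probe sets and variance prior and left out each array. Protein and promoter sequences were not analysed here.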

Additional observations from a re-analysis of the deposited data

How the results depend on the processing

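Of 276 results for a member in 1 of the 6 comparisons, 126 were called, and 101 of these kept their call in every alternative run at a threshold of 0.05; 0 reversed. Using probe sets without a suffix left 25 members by construction. The counts were then 5 higher and 3 lower in crh-1 null, 13 and 2 in tax-6 null, and 6 and 3 in aak-2 o/e. Beside them stood 10.5% and 11.3%, 19.5% and 26%, and 14.4% and 19.9% of all genes. Members differing numbered 12 between crh-1 null and tax-6 null, 15 between crh-1 null and aak-2 o/e, and 15 between aak-2 o/e and tax-6 null. The shares of all genes that differed were 38.3%, 47.9% and 51.4%. Leaving out 1 array gave 10 to 12 higher and 5 to 7 lower in crh-1 null, 19 to 20 and 5 to 6 in tax-6 null, 11 to 15 and 3 to 5 with aak-2 o/e, then 16 to 25, 18 to 30 and 21 to 27 in the direct contrasts. The 5 lower members in aak-2 o/e, against 3, came without tax-6 null replicate 1. The share of all genes called lower there was then 26.9%, against 19.3%. The moulting regulator gene nhr-23 in tax-6 null changed by 0.39 (adjusted p = 0.03) with its brightest probe set and by -0.1 with the mean of its detected probe sets; the cause was not tested. With the replicate number as a block the counts were 10, 5, 20, 5, 12 and 3, higher then lower, with strains ordered as above. The shares of all genes were 9.06%, 9.52%, 17.6%, 24.8%, 13.8% and 16.9%. Direct contrasts with the block gave 20, 23 and 23 members, against 35.1%, 43.7% and 48% of all genes. Deviations of same-numbered arrays from their strain means correlated at -0.25 to 0.14, and 1 of 18 pairs was over 0.1. The labels do not say that a replicate number marks a shared day, and these correlations cannot settle it. Of 15 members with more than 1 detected probe set, 14, 11 and 12 had the same call for each in the same order of strains and 0 had opposite calls.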
